A study of Mus musculus with 18 samples.

Results

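The mRNA of 9 genes of type I interferon signalling and RNA sensing was followed in MEFs (mouse embryonic fibroblasts) kept in different sera or moved between them. The 9 genes are the receptor chains Ifnar1 and Ifnar2, the factors Stat2, Irf9, Irf1 and Irf7, and the RNA sensors Ddx58, Ifih1 and Dhx58. They were chosen by name from a table of 55487 genes, and the set was put together with earlier results of these same libraries known. Their levels and calls are therefore a description and no independent support for a direction. All 9 of the 9 genes passed the filter on low counts, which left 15381 genes for testing.
The series holds 18 libraries from MEFs labelled as wild type, in 6 groups of 3. Scm is complete medium made with S-FBS, a fetal bovine serum in which these cells died readily by ferroptosis, an iron-dependent death through lipid peroxidation. Rcm is complete medium made with R-FBS, a serum in which they resisted it. One pair of groups was kept in Scm or in Rcm and is labelled as 0 h. Cells of the other groups left Scm for Rcm (S-Rcm) or Rcm for Scm (R-Scm) and were collected after 12 h or 24 h. The groups analysed here include none that was given fresh medium of its own serum and collected at 12 h or 24 h, so the change of serum and the change of medium cannot be told apart. The labels do not say whether the libraries of a group came from separate cultures, and p values then measure only the spread between these libraries.

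Type I interferon binds a receptor made of IFNAR1 and IFNAR2, whose kinases JAK1 and TYK2 phosphorylate STAT2. STAT2 and IRF9 are subunits of ISGF3, the factor that binds the interferon-stimulated response element (ISRE) and switches on interferon-stimulated genes. RIG-I (Ddx58) and MDA5 (Ifih1) sense double-stranded RNA in the cytoplasm and signal through MAVS to IRF3 and IRF7, which drive interferon genes. LGP2 (Dhx58) is a related helicase without the signalling domains. Stat2, Irf9, Irf7 and the sensors are themselves known as interferon-stimulated genes, and fibroblasts are a common cell in which this loop is studied.

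The starts of the genes were read from RefSeq (GRCm38.p6), from 250 bases before to 50 bases after each start. Of the 9 genes, 8 had an entry, with 10 windows among them, and Dhx58 had none. The core of the ISRE was searched as GAAANNGAAA on both strands, where it reads TTTCNNTTTC on the other strand. It was found in the windows of Stat2, Ddx58 and Ifih1, and in 3.44% of all 32851 windows. The palindrome TTCNNNGAA, the core of the GAS element bound by STAT dimers, was found in the windows of Ifnar1, Ifnar2 and Irf1, and in 8.3% of all windows. No window of these genes held both motifs, and the windows of Irf7 and Irf9 held neither. A match describes the letters and shows no binding. The sequences with an ISRE core and that of Irf1 are given as examples, and those of Ifnar1 and Ifnar2 are not shown. Irf7 and Irf9, which held neither motif, and Dhx58, which was not searched, also differed between the sera below. Whether a motif goes with a difference between the sera was not tested. They are written 5′ to 3′ on the strand of the gene, with the motif in capitals. The motif began at position -222 in Stat2, +3 in Ddx58, +33 in Ifih1 and -90 in Irf1, where +1 is the RefSeq start.
Stat2, chr10:128270248-128270360, plus strand: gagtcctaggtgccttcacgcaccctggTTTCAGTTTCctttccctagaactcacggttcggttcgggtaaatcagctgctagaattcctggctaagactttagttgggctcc
Ddx58, chr4:40239804-40239833, minus strand: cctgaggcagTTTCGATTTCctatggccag
Ifih1, chr2:62646206-62646235, minus strand: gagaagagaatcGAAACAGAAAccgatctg
Irf1, chr11:53769849-53770007, plus strand: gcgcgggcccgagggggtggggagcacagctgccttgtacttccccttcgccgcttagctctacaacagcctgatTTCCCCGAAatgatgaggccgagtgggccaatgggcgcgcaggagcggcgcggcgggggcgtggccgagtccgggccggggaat

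The libraries held 14534906 to 20313715 counts. Expression is given as CPM, which relates counts to the library size after TMM scaling, and SDs are over the 3 libraries of a group (n = 3). A gene was called when its log2 fold change in edgeR's quasi-likelihood test went beyond 0.58 in either direction and its p, adjusted by Benjamini and Hochberg's method over the 15381 genes, was under 0.05. The label of fibroblasts was checked with 10 markers. Col1a1, Col1a2, Fn1 and Vim each stood at 944 CPM or more in every library, and Col3a1, Pdgfra, Pdgfrb and Thy1 at 53.1 CPM or more. Dcn was low, at 1.38 to 10.1 CPM, and Lum had at most 3 counts. Of these markers Col3a1 was called higher in Rcm than in Scm. The summed level of the list was 8572 to 8929 CPM in Scm and 10570 to 11350 CPM in Rcm, and its part in the results was not tested. Of 10 leukocyte markers 6 had at most 3 counts in every library, with Adgre1, Tyrobp and Siglech at 0, and the summed level of the list was 10.7 to 19.8 CPM, most of it Cd14 and Cd68. It was 11.6 to 15.3 CPM in Rcm and 15.1 to 18.1 CPM in Scm. In these bulk libraries, fewer cells that express a gene and less RNA per cell cannot be told apart.
R-Scm 24 h replicate 1 stood apart from the other libraries of its group. Distances were taken over 15301 genes outside the 9 genes and the interferon pathway lists used below. The root mean square distance of replicate 1 in log2 CPM was 0.62 and 0.626 to the other libraries of R-Scm 24 h. Between replicates elsewhere it was 0.439 to 0.563, and between replicates 2 and 3 it was 0.551. Replicate 2 lay at 0.529 from the mean of Rcm and at 0.537 from the mean of Scm, and replicate 3 at 0.512 and 0.415. Replicate 1 lay at 0.432 from the mean of Rcm and at 0.546 from the mean of Scm. It was thus nearer to Rcm than to Scm, as it was for 6 of the 9 genes below, and whether its label is right was not tested. The comparisons of R-Scm 24 h are given below with and without replicate 1. Leaving out a library near the level of Rcm favours lower calls and a smaller SE. The calls without it are therefore a description and no independent support for a direction.

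The first comparison asked how cells kept in Rcm differ from cells kept in Scm. Stat2, Irf9, Irf7, Ddx58, Ifih1 and Dhx58 were higher in Rcm, and the receptor chains and Irf1 were not called. Thus 6 of the 9 genes were called, all higher, where 1.67% of all genes tested were called higher and 2.3% were called at all. The libraries of the 6 genes did not overlap between the groups, as for 12.8% of all genes in that direction. Over the 9 genes the median log2 fold change was 1.66, and over all genes it was 0.012.
Ifnar1 (GRCm38 chromosome 16, 91485238 to 91507441, plus strand) encodes the signalling chain that carries TYK2. It stood at 64.8, 91.3 and 89.0 CPM in Scm and at 75.7, 91.2 and 58.0 CPM in Rcm. The groups overlapped, with a log2 fold change of -0.12 (SE 0.16, edgeR adjusted p = 0.725). Ifnar2 (chromosome 16, 91372783 to 91405589, plus strand) encodes the high-affinity chain. It stood at 29.9, 31.4 and 29.7 CPM in Scm and at 24.5, 28.1 and 28.5 CPM in Rcm. All libraries of Rcm were lower than those of Scm, but by only -0.16 on the log2 scale (SE 0.094, edgeR adjusted p = 0.396).
Stat2 (chromosome 10, 128270559 to 128292849, plus strand), the ISGF3 subunit that provides the transactivation domain, was at 24.1, 23.6 and 24.1 CPM in Scm. In Rcm it was at 77.2, 76.9 and 73.2 CPM. The log2 fold change was 1.66 (SE 0.30, edgeR adjusted p = 0.00547). The spread within each group was small beside this difference.
Irf9 (chromosome 14, 55603571 to 55610030, plus strand), the DNA-binding subunit of ISGF3, was at 23.8, 25.0 and 25.4 CPM in Scm. Rcm had 69.7, 81.4 and 51.9 CPM, and the log2 fold change was 1.45 (SE 0.27, edgeR adjusted p = 0.007). Replicate 3 of Rcm was the lowest of its group for Irf9 and still above every library of Scm. Irf9 shares 123 exonic bases with Rnf31 on its strand, and reads from that stretch may be split between both genes.
Irf1 (chromosome 11, 53770014 to 53778374, plus strand), a factor induced mainly by interferon gamma and by NF-kB, had 23.5, 24.7 and 30.2 CPM in the libraries of Scm. Those of Rcm had 23.6, 29.4 and 26.4 CPM. The groups overlapped, and the log2 fold change was 0.018 (SE 0.20, edgeR adjusted p = 0.975). Irf7 (chromosome 7, 141262706 to 141266481, minus strand), the factor that amplifies interferon alpha genes, was at 2.73, 2.91 and 3.09 CPM in Scm. Rcm had 9.98, 10.4 and 12.8 CPM, and the log2 fold change was 1.92 (SE 0.32, edgeR adjusted p = 0.00242).
Ddx58 (chromosome 4, 40203773 to 40239828, minus strand) had 32.6, 35.6 and 37.4 CPM in Scm, while Rcm had 132.9, 131.9 and 105.1 CPM. The difference on the log2 scale was 1.81 (SE 0.30, edgeR adjusted p = 0.00304). Dhx58 (chromosome 11, 100694884 to 100704271, minus strand) had 3.74, 3.61 and 4.05 CPM in Scm, while Rcm had 14.7, 15.6 and 13.6 CPM. On the log2 scale it changed by 1.94 (SE 0.30, edgeR adjusted p = 0.00138).
Ifih1 (chromosome 2, 62595798 to 62646255, minus strand) was the least abundant of the 9 genes. It had 11, 2 and 1 counts in Scm and 40, 37 and 40 counts in Rcm. The log2 fold change of 2.99 was the largest of the 9 genes and the least certain (SE 0.74, edgeR adjusted p = 0.0385). Ifih1 was no longer called when all genes entered the test without the filter (adjusted p = 0.0767), or without Scm replicate 2 or 3 or Rcm replicate 1 or 2 (adjusted p = 0.104 to 0.163). Without Scm replicate 1, the library with 11 counts, the log2 fold change was 4.39.
Reads were counted without a stated use of strand, so reads from genes that overlap on opposite strands may be mixed. Irf1 overlaps Gm17334 over 135 exonic bases, Irf7 overlaps Phrf1 over 45 and Dhx58 overlaps Dhx58os over 141.

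**Figure D1:**
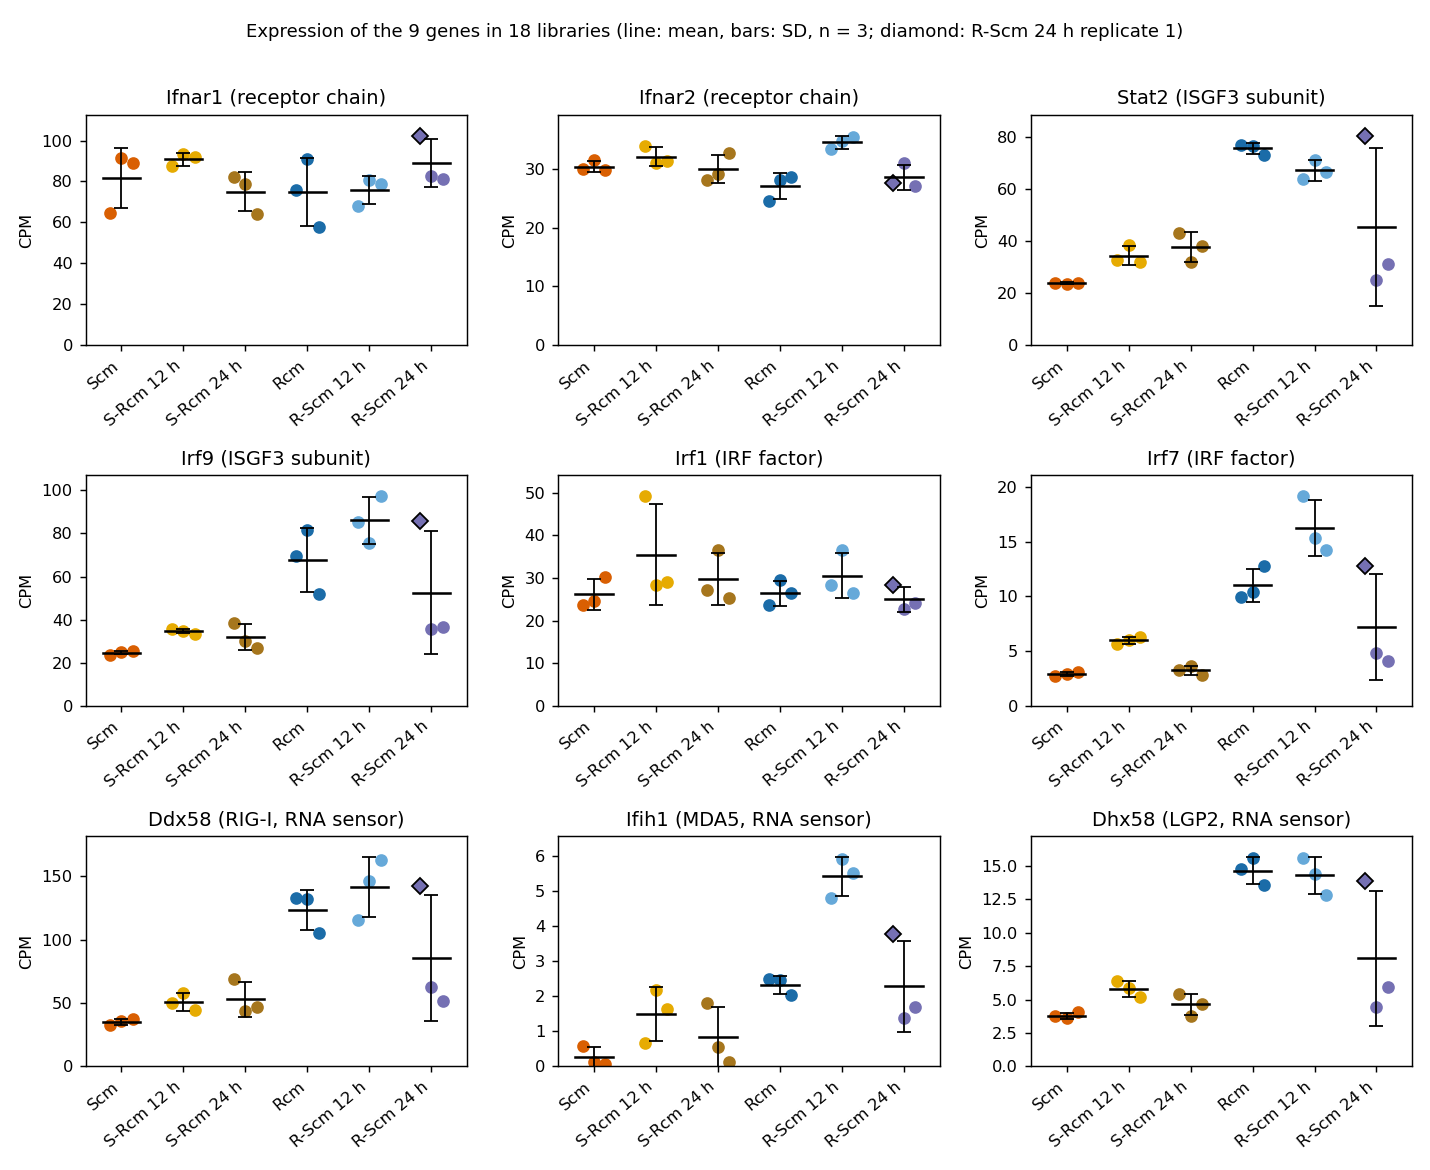
Each panel plots 1 gene, with CPM on the vertical axis from 0 and the 6 groups on the horizontal axis. Points are libraries, lines are means and bars are SDs (n = 3), and the diamond is R-Scm 24 h replicate 1, which lies near Rcm for Stat2 (80.6 CPM), Irf9 (85.5), Irf7 (12.8), Ddx58 (142.5) and Dhx58 (13.8).

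Levels of the genes can be compared with each other only per length. Per kilobase of exon (GRCm38, GENCODE M21), Ddx58 was the highest of the 9 genes in Rcm, at 17.5 CPM per kilobase. Stat2 (12.8), Ifnar1 (12.6) and Irf9 (12.6) followed, then Ifnar2 at 8.12, Irf1 at 6.65, Dhx58 at 4.47, Irf7 at 2.92 and Ifih1 at 0.285 CPM per kilobase. The 3 genes at 12.6 and 12.8 do not differ beyond the spread of their libraries. In Scm the receptor chains led instead, with Ifnar1 at 13.8 and Ifnar2 at 9.1 CPM per kilobase, followed by Irf1 at 6.57. Ddx58 (4.99), Irf9 (4.59) and Stat2 (4.04) came next, before Dhx58 (1.16), Irf7 (0.771) and Ifih1 (0.0325 CPM per kilobase). The exons annotated for Irf7 together cover its whole gene, which lowers its value per kilobase. Those of Irf9 cover 5386 bases of a gene that runs from 55603571 to 55610030, so its value may be lowered too. The order of the genes depends on these annotated lengths.

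The next comparisons followed cells moved from Scm to Rcm. At 12 h the log2 fold changes against Scm were positive for 9 of 9 genes, with a median of 0.53 (0.019 over all genes). None of the 9 genes was called by edgeR, where 0.858% of all genes were called, and 3 had an unadjusted p under 0.05. Many other genes did too, as Irf1, the weakest of the 3 (edgeR unadjusted p = 0.0439), ranked 2039 by p among 15381 genes. DESeq2 called 1. Here and below, counts by DESeq2 are given without its share of all genes and have no background to be read against. The libraries of 6 genes, the same 6 that were called between Rcm and Scm, were higher without overlap, as for 14.4% of all genes.
Irf7 ran from 5.70 to 6.26 CPM over the 3 libraries, against 2.73 to 3.09 CPM in Scm. Its log2 fold change was 1.04 (SE 0.32, edgeR adjusted p = 0.131), so this difference did not pass. Ifih1 had 12, 39 and 28 counts, a log2 fold change of 2.35 (SE 0.76, edgeR adjusted p = 0.15), with replicate 1 close to the highest library of Scm. Without Scm replicate 1 it was 3.76, and over the 6 fits without 1 library it ran from 1.94 to 3.76. Stat2 was at 32.9, 38.8 and 31.9 CPM, a log2 fold change of 0.53 (SE 0.29, edgeR adjusted p = 0.445). Irf9 was at 33.5 to 35.5 CPM and Ddx58 at 44.3 to 58.2 CPM, each above every library of Scm and below every library of Rcm. Dhx58 was at 5.21 to 6.41 CPM. Irf1 reached 49.1 CPM in replicate 1 but 28.3 and 29.0 CPM in the others, and its group overlapped with Scm.
At 24 h in Rcm, Irf7 stood at 3.31, 3.63 and 2.85 CPM, overlapping with Scm. Its level was lower than at 12 h in every library, by -0.87 on the log2 scale (SE 0.32, edgeR adjusted p = 0.364), which did not pass the test. Stat2 had 43.4, 31.9 and 38.3 CPM and Ddx58 had 68.7, 43.7 and 46.6 CPM. Both stayed above every library of Scm. None of the 9 genes was called against Scm at 24 h by edgeR (0.338% of all genes were), 1 had an unadjusted p under 0.05, and DESeq2 called none. That gene, Stat2 (edgeR unadjusted p = 0.0401), ranked 1060 by p among all genes tested. Stat2, Ddx58 and Irf9 were higher without overlap, as for 10.6% of all genes. Between 24 h and 12 h in Rcm none was called by edgeR or DESeq2 (0.156% of all genes by edgeR), with 1 gene at an unadjusted p under 0.05. This was Irf7 (edgeR unadjusted p = 0.0136), at rank 574 by p among all genes tested. Irf7 and Ifnar1 were lower at 24 h without overlap, as for 8.48% of all genes.
After 24 h in Rcm the cells were also set against cells kept in Rcm. Irf7 and Dhx58 were lower than in cells kept in Rcm, and Stat2, Irf9, Ddx58 and Ifih1 were lower without being called. Thus 2 of the 9 genes were called, where 0.156% of all genes were called lower and 0.221% were called at all. Irf7 had a log2 fold change of -1.76 (SE 0.31) and Dhx58 one of -1.66 (SE 0.29), each with an edgeR adjusted p of 0.0239. The libraries of 6 genes were lower without overlap, as for 6.92% of all genes. Values for the others were -1.47 for Ifih1, -1.22 for Ddx58, -1.08 for Irf9 and -1.001 for Stat2, with edgeR adjusted p from 0.154 to 0.617. The value of Ifih1 was -2.70 without S-Rcm 24 h replicate 1 and ran up to -0.98 in the other fits without 1 library. DESeq2 called 4 of the 9 genes in this comparison. Irf7 lost its call in each of the 6 fits that left out 1 library (adjusted p = 0.0733 to 0.188), and Dhx58 kept its call only without S-Rcm 24 h replicate 1 (adjusted p = 0.0497 to 0.176 over the 6 fits).

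The opposite exchange took cells from Rcm to Scm. At 12 h none of the 9 genes was called against Rcm by edgeR, in a comparison where 2.74% of all genes were called, and 2 had an unadjusted p under 0.05. The weaker of the 2, Ifih1 (edgeR unadjusted p = 0.0431), ranked only 2542 by p among 15381 genes. DESeq2 also called none of the 9 genes. Of the 6 genes, Irf7 and Ifih1 lay above the libraries of Rcm, Stat2 lay below them, and Irf9, Ddx58 and Dhx58 overlapped with them. Irf7 had 19.2, 15.4 and 14.2 CPM, above all libraries of Rcm, with a log2 fold change of 0.56 (SE 0.29, edgeR adjusted p = 0.338). Ifih1 had 88, 115 and 90 counts, its highest group of the 6, with a log2 fold change of 1.22 against Rcm (SE 0.55, edgeR adjusted p = 0.261).
Stat2 stood at 63.9, 71.5 and 66.6 CPM, below every library of Rcm, but by only -0.17 on the log2 scale (SE 0.29, edgeR adjusted p = 0.82). Dhx58 was at 15.6, 14.4 and 12.8 CPM, overlapping with Rcm. Irf9 was at 85.3, 75.5 and 97.2 CPM and Ddx58 at 115.7, 145.7 and 162.6 CPM, both overlapping with Rcm. Ifnar2 was at 33.3, 34.7 and 35.4 CPM, above every library of Rcm. Its log2 fold change of 0.35 (SE 0.093) had an edgeR adjusted p of 0.0427 and fell short of the fold threshold. Ifnar2, Irf7 and Ifih1 were higher without overlap, as for 11.7% of all genes. Ifnar2 shares 315 exonic bases with Gm21970 on its strand, a gene with at most 84 counts in a library.
At 24 h in Scm the 3 libraries disagreed. Stat2 was at 80.6 CPM in replicate 1, at the level of Rcm, and at 25.3 and 31.2 CPM in replicates 2 and 3, near the level of Scm. Irf9 was at 85.5, 35.5 and 36.6 CPM. Ddx58 was at 142.5, 62.9 and 51.4 CPM. Irf7 was at 12.8, 4.80 and 4.08 CPM, Dhx58 at 13.8, 4.42 and 5.96 CPM, and Ifih1 at 64, 22 and 33 counts. In all 6 genes replicate 1 lay within or above the range of Rcm, and replicates 2 and 3 lay below it.
With all libraries, none of the 9 genes was called by edgeR between R-Scm 24 h and Rcm (0.377% of all genes were called), 2 had an unadjusted p under 0.05, and DESeq2 called none. The weaker of the 2, Stat2 (edgeR unadjusted p = 0.0226), ranked 954 by p among all genes tested. The log2 fold changes were -0.73 for Stat2, -0.86 for Dhx58 and -0.62 for Irf7. Without replicate 1, 5 of the 9 genes were called lower, where 2.13% of the 15704 genes tested in that fit were called lower. That library lay within or above the range of Rcm in these genes, so the calls follow in part from leaving it out. Stat2 changed by -1.42 (SE 0.13, edgeR adjusted p = 2.29e-05) and Dhx58 by -1.49 (SE 0.18, edgeR adjusted p = 0.000185). Irf7 changed by -1.32, Ddx58 by -1.11 and Irf9 by -0.91, with edgeR adjusted p from 0.000427 to 0.00627. Ifih1 had a log2 fold change of -0.59 and was not called (SE 0.62, edgeR adjusted p = 0.68).
From 12 h to 24 h in Scm the same split appeared. With all libraries none of the 9 genes was called by edgeR (0.774% of all genes were), 6 had an unadjusted p under 0.05 and DESeq2 called 1. These 6 included Ifnar2 (log2 fold change -0.27, SE 0.093, edgeR unadjusted p = 0.00926) and not Stat2 (edgeR unadjusted p = 0.0701). The weakest of them, Ifih1 (edgeR unadjusted p = 0.0388), ranked 1791 by p among all genes tested. Irf7 came nearest, at -1.17 (SE 0.29, edgeR adjusted p = 0.0699). Without replicate 1, 5 of the 9 genes were called lower, where 1.43% of all genes in that fit were. These calls too follow in part from leaving it out. Irf7 then changed by -1.88, Dhx58 by -1.46, Ddx58 by -1.31, Irf9 by -1.26 and Stat2 by -1.25, with edgeR adjusted p from 4.21e-05 to 0.00226. Ifih1 had a log2 fold change of -1.81 and was not called (edgeR adjusted p = 0.151).
Against cells kept in Scm, R-Scm 24 h was still higher without overlap in 6 of the 9 genes, as for 8.03% of all genes. None was called by edgeR (0.592% of all genes were), although 6 had an unadjusted p under 0.05, and DESeq2 called 5. The weakest of these 6 by edgeR, Stat2 (edgeR unadjusted p = 0.0062), ranked 398 by p among 15381 genes. The log2 fold change was 1.31 for Irf7, 1.28 for Ddx58 and 0.93 for Stat2, with edgeR adjusted p of 0.0855, 0.0714 and 0.24. Without replicate 1 these were 0.61, 0.70 and 0.24, and none of the 9 genes was called, with the smallest edgeR adjusted p at 0.136. The receptor chains and Irf1 overlapped with Scm in this comparison.
The comparisons with a common group share its libraries and are not independent of each other.

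**Figure D2:**
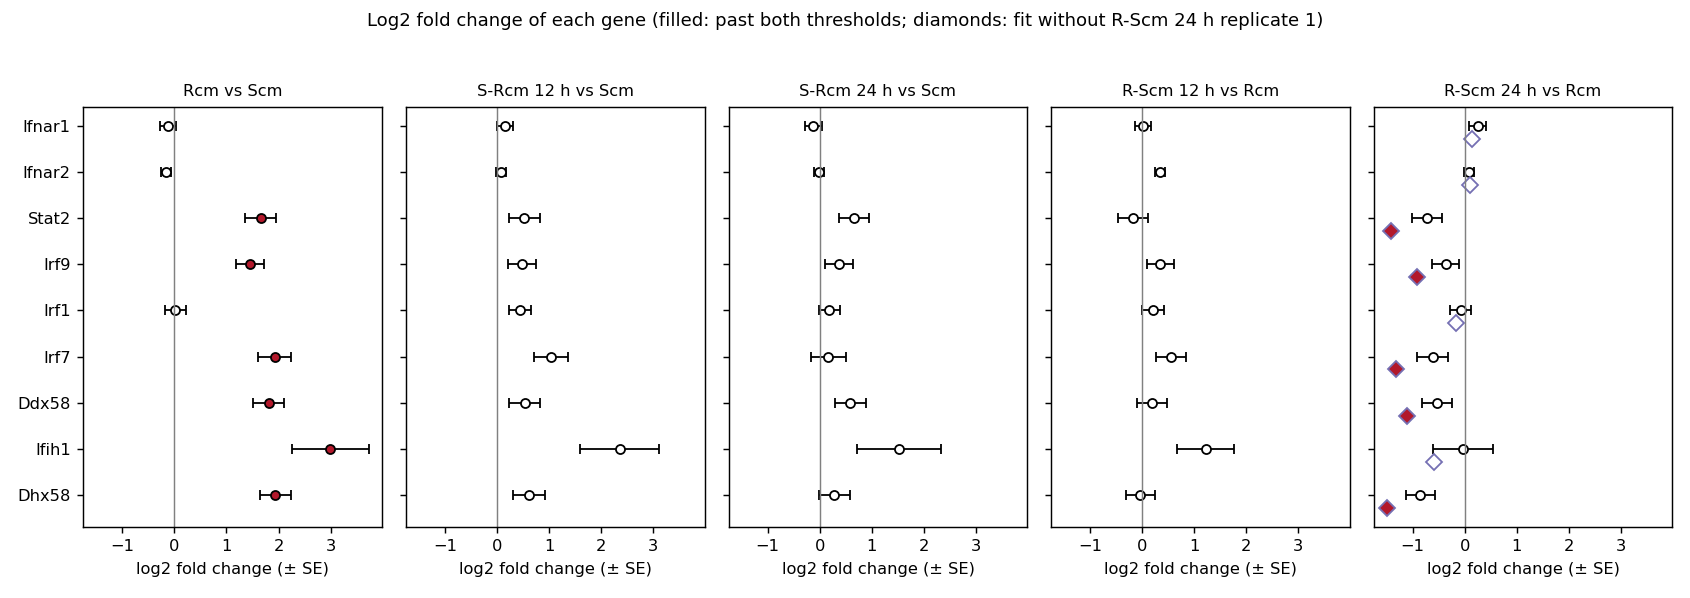
Log2 fold change (horizontal axis, ± SE) of the 9 genes in 5 comparisons, 1 per panel, where filled circles passed both thresholds. Of the circles only the 6 in the panel of Rcm against Scm are filled. Diamonds in the last panel give the fit without R-Scm 24 h replicate 1, in which 5 genes passed, from -0.91 (Irf9) to -1.49 (Dhx58).

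Over the 18 libraries the 9 genes fell into a group of 6 that varied together and the remaining 3. Pearson's r of log2 CPM was 0.755 to 0.975 among Stat2, Irf9, Irf7, Ddx58, Ifih1 and Dhx58, highest between Irf9 and Ddx58. With the mean profile of the 9 genes r was 0.941 for Irf9, 0.939 for Irf7, 0.912 for Ddx58, 0.903 for Dhx58, 0.86 for Stat2 and 0.843 for Ifih1. It was 0.326 for Irf1, 0.204 for Ifnar2 and 0.168 for Ifnar1. Each of the 9 genes is part of the mean profile, which raises its r with it, unlike that of the genes outside it below. All these values share libraries and groups and are given without a test.
Among 13526 other genes with a mean of at least 1 CPM, the profile of Trim21, an intracellular antibody receptor and ubiquitin ligase, was the most like the mean profile (r = 0.971 over 18 libraries). Dtx3l (0.938), Gbp3 (0.936), Tap1 (0.936), Ifit1 (0.935) and Usp18 (0.935) followed, then Ifit3 (0.934), Mx2 (0.934), Ifit3b (0.933) and Gbp2 (0.929).

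**Figure D3:**
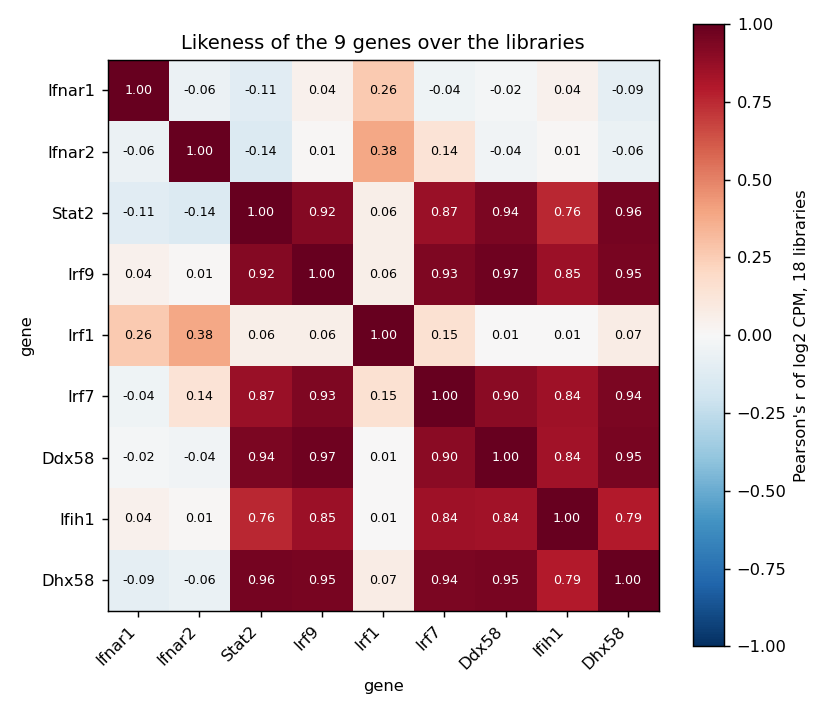
Pearson's r of log2 CPM over the 18 libraries for each pair of the 9 genes, from -1 (blue) to 1 (red). The 6 genes that were called between Rcm and Scm have r of 0.755 or more with each other, and Irf1 and the receptor chains have at most 0.384 with any of the 9.

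Other genes of the pathway were taken from lists written by role, 97 genes of which 71 were tested. These lists too were chosen with earlier results of these data known, so their counts are a description and no independent support. Between Rcm and Scm 31 of the 71 were called, all higher, where 1.67% of all genes tested were called higher. Of the ligands, 21 interferon genes were listed and none passed the filter. Ifnz was the only ligand with more than 3 counts in any library, at most 13, with 0.285 ± 0.108 CPM in Rcm and 0.339 ± 0.173 CPM in Scm. The ligand genes were therefore not tested for a difference between Rcm and Scm in this fit.
Of the other receptor chains and kinases, 0 of 6 were called. Jak1, the kinase bound to IFNAR2, had a level of 165.2 ± 4.96 CPM in Scm, against 185.3 ± 13.9 CPM in Rcm (log2 fold change 0.17, edgeR adjusted p = 0.482). Tyk2 was at 43.1 ± 1.57 and 40.7 ± 4.35 CPM (-0.079, edgeR adjusted p = 0.787). Among the other STAT and IRF factors of the list 0 of 4 were called by edgeR, with 1 at an unadjusted p under 0.05. The share of all genes under that p is not given. Irf3, which the sensors activate without new synthesis, was at 33.3 ± 3.63 and 28.9 ± 3.93 CPM (-0.20, edgeR adjusted p = 0.553).
Among partners in RNA and DNA sensing 4 of 20 were called, and all 4 were higher in Rcm. They were Ddx60 (log2 fold change 3.49), the endosomal RNA sensor Tlr3 (1.70), the kinase PKR, Eif2ak2 (1.36), and the Z-nucleic acid sensor Zbp1. Zbp1 had 2 to 3 counts per library in Scm and 19 to 44 in Rcm, and no fold is given for it. Tlr3 kept its call in 1 of the 6 fits that left out 1 library, the one without Rcm replicate 3 (edgeR adjusted p = 0.0372 to 0.17 over the 6 fits). Ddx60 kept its call in all 6, with a log2 fold change of 4.39 without Scm replicate 2. Mavs, the adaptor of RIG-I and MDA5, was at 52.6 ± 1.08 and 55.1 ± 1.17 CPM (0.067, edgeR adjusted p = 0.742). Of the feedback inhibitors 1 of 14 was called. This was Usp18, which binds IFNAR2 and blocks its signalling, with 3.57 ± 0.534 CPM in Scm, against 34.5 ± 4.95 CPM in Rcm (3.27, SE 0.49, edgeR adjusted p = 0.0017).
The list of interferon-stimulated effectors had 26 of 27 genes called higher (1.67% of all genes), with a median log2 fold change of 2.69. The largest changes belonged to the RNA-activated synthetase Oas2 (4.82), Oasl2 (3.70), Ifit1 (3.64), Ifi44 (3.51), Mx2 (3.50) and Ifit3 (3.33). Oas2 had only 1 to 8 counts per library in Scm, and its log2 fold change ran from 4.42 to 5.63 over the fits without 1 library, the highest without Scm replicate 1. The median of the effectors lay above the log2 fold changes of 5 of the 6 called factors and sensors, with Ifih1 as the exception.
In cells moved to Rcm the lists had 4 of 71 genes called higher than Scm at 12 h and 1 of 71 at 24 h. Of all genes 0.858% and 0.338% were called in these comparisons. After 24 h in Rcm 8 of 71 were called lower than in cells kept in Rcm, all effectors, where 0.156% of all genes were called lower. In cells moved to Scm 3 of 71 were called higher than Rcm at 12 h, and 9 of 71 were called lower at 24 h than at 12 h. Of all genes 2.74% and 0.774% were called in either direction. At 24 h none was called against Rcm by edgeR, with 13 at an unadjusted p under 0.05 and 2 called by DESeq2, and 16 of 71 were called higher than Scm. Of all genes 0.377% were called against Rcm and 0.592% against Scm. These shares are of adjusted calls by edgeR, and no share is given for the 13 or for DESeq2. Without R-Scm 24 h replicate 1, 18 of the 27 effectors were called lower than Rcm and 23 of the 27 lower than at 12 h. Of all genes in that fit 2.13% and 1.43% were called lower. In the same fit, where Ifnz also passed the filter, 11 pathway genes were called higher than Scm. The share of all genes called higher than Scm in that fit is not given. At most 92 of all genes were called in that comparison in any fit without 1 library, the 92 without R-Scm 24 h replicate 3.

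**Figure D4:**
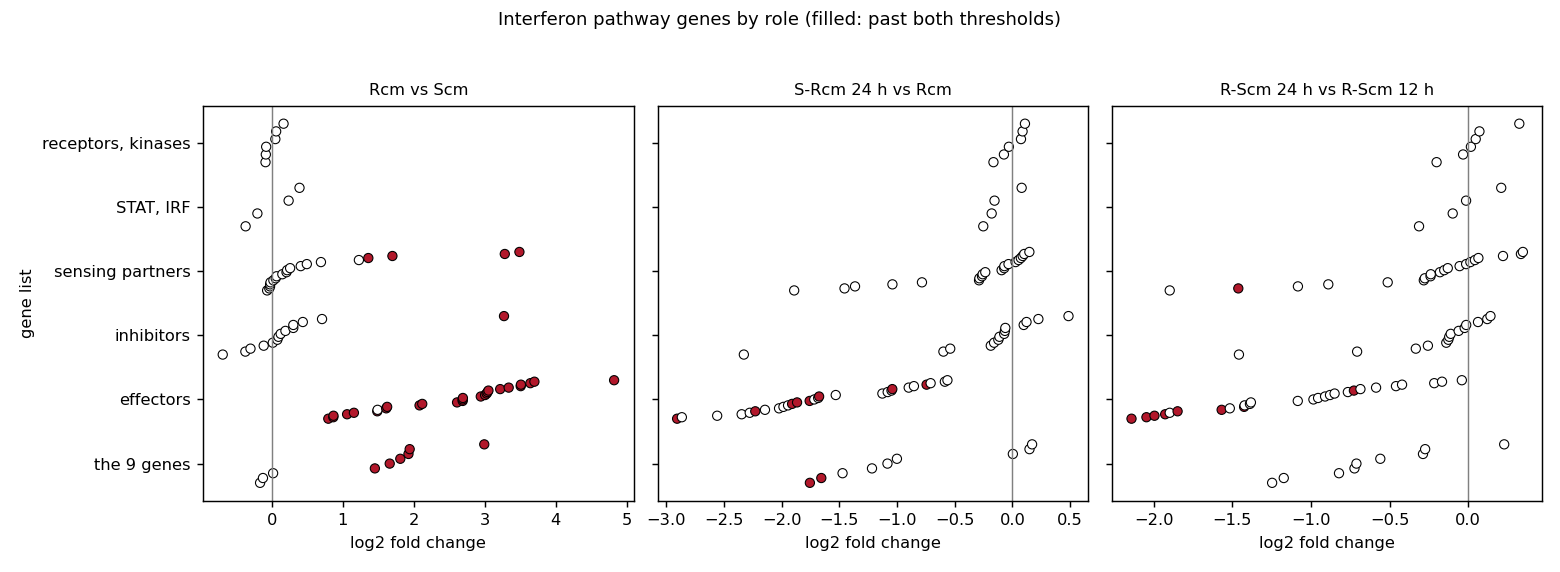
Log2 fold change (horizontal axis) of each tested gene, by list (rows), in 3 comparisons, where filled circles passed both thresholds. Between Rcm and Scm the filled circles are 26 of 27 effectors, 4 of 20 sensing partners, Usp18 and 6 of the 9 genes, and no receptor or kinase is filled in any panel.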

How the data were processed

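RNA of 18 MEF samples was sequenced by the authors as paired-end reads from an mRNA library kit. The authors aligned them to GRCm38 with HISAT2 and deposited raw counts, whole numbers of reads per gene without normalization, for 55487 genes. The counting tool and its use of strand are not given in the sources used here. Each count column was assigned through the sample description that names it, and its group and replicate number were taken from the sample title, and 0 columns were left out. In 3 groups the column names number the replicates differently from the titles. The 9 genes and the pathway and marker lists were chosen with earlier results of these data known. Genes were filtered with edgeR's filterByExpr, which removed 40106, scaled with TMM and tested with a quasi-likelihood model with robust dispersion over all 18 libraries (common dispersion 0.0298), in 9 comparisons. Calls needed a log2 fold change beyond 0.58 in either direction and an adjusted p (Benjamini and Hochberg) under 0.05. Log2 CPM used a prior count of 2.
Every one of the 9 genes is named. From a pathway list, at most the 6 genes with the largest log2 fold change among those called in some comparison were named, ligands when a library held more than 3 counts, and Jak1, Tyk2, Irf3 and Mavs in any case. A gene of the lists is not reported here and was left out of their counts. The 10 genes most like the mean of the standardised log2 CPM of the 9 genes were named by Pearson's r. Replicates differed by more than counting error (chi-square per degree of freedom 10.2 to 45.1). Total counts of 14534906 to 20313715 leave genes under about 1 CPM, such as Ifih1 in Scm, with few counts, and counting error is only part of the spread. The labels give no batch or date. Alternatives were RLE scaling, no filter, the adjusted p alone, a block for the replicate number, DESeq2, a model of only the compared groups, and each library left out. The scripts were tested on simulated data (seed 1). Exon lengths and positions came from GENCODE M21, which holds 55141 of the identifiers. Analyses ran in edgeR 4.0.16 with limma 3.58.1 and in DESeq2 1.42.0 (R 4.3.3), and figures were drawn with matplotlib 3.10.9 under Python 3.11.15.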

Additional observations from a re-analysis of the deposited data

Results flagged for a closer look

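The effects of R-Scm 12 h and R-Scm 24 h against Rcm differed for 3 named pathway genes, as tested by R-Scm 24 h against R-Scm 12 h in the edgeR model of all libraries. The RNA-binding effector Ifit1 was lower at 24 h, with a log2 fold change of -1.85 (SE 0.39, edgeR adjusted p = 0.0337). Ifit3 was lower by -1.57 (SE 0.34, edgeR adjusted p = 0.0366). The nucleic acid sensor Zbp1 was lower by -1.46 (SE 0.31, edgeR adjusted p = 0.0291). Of the 6 fits that left out 1 library, Ifit1 kept its call in 2, Ifit3 in 1 and Zbp1 in 3, with edgeR adjusted p up to 0.127, 0.132 and 0.137. Without R-Scm 24 h replicate 1 the log2 fold changes were -2.59, -2.39 and -1.40, and all of them were called. None of the 9 genes met this rule, and groups of 3 are too small for the test of single outlying samples.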

How the results depend on the processing

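Among 111 results, each of 1 gene in 1 comparison and most of them not called in the main fit, RLE scaling kept 111 on their side of the threshold. The adjusted p alone added 1 call, the replicate block lost 4, the lack of a filter lost 11, edgeR on the compared groups lost 11 and added 3, and DESeq2 added 9. Only results called in the main fit could be lost. The replicate numbers of the titles, which differ from those of the count columns in 3 groups, did not pair the samples (correlations of same-numbered deviations from -0.196 to 0.346), and with a replicate block the number of the 9 genes called was the same in all 9 comparisons, 6 for Rcm against Scm and 2 for S-Rcm 24 h against Rcm.
Called among the 9 genes moved as follows. With the adjusted p alone, or with edgeR on the compared groups, 1 was called in R-Scm 12 h against Rcm. In S-Rcm 12 h against Scm edgeR on the compared groups and DESeq2 called 1. In S-Rcm 24 h against Rcm edgeR on the compared groups called 3 and DESeq2 4. DESeq2 called 5 in R-Scm 24 h against Scm and 1 in R-Scm 24 h against 12 h.
Of the pathway genes, DESeq2 called 5 in R-Scm 12 h against Rcm and 2 in R-Scm 24 h against Rcm. Against Scm it called 10 in S-Rcm 12 h, 5 in S-Rcm 24 h and 24 in R-Scm 24 h. In S-Rcm 24 h against Rcm it called 24. It called 17 in R-Scm 24 h against 12 h and 2 in S-Rcm 24 h against 12 h. EdgeR on the compared groups called 16 in S-Rcm 12 h, 4 in S-Rcm 24 h and 3 in R-Scm 24 h against Scm, 14 in S-Rcm 24 h against Rcm and 1 in R-Scm 24 h against 12 h. Without the filter 1 was called in R-Scm 24 h against Rcm, 10 in R-Scm 24 h against Scm and 5 in S-Rcm 24 h against Rcm. These counts, and those of the 9 genes above, are given without the share of all genes called under each setting. The cause was not tested.
With 1 library left out, the called of the 9 genes were 5 to 6 in Rcm against Scm, 0 to 5 in R-Scm 24 h against Rcm and against 12 h, 0 to 4 in R-Scm 24 h against Scm and 0 to 1 in S-Rcm 24 h against Rcm. Of the pathway genes they were 26 to 32 in Rcm against Scm, 2 to 4 in R-Scm 12 h against Rcm, 0 to 22 in R-Scm 24 h against Rcm, 1 to 2 in S-Rcm 12 h, 0 to 1 in S-Rcm 24 h and 2 to 22 in R-Scm 24 h against Scm, 0 to 7 in S-Rcm 24 h against Rcm and 2 to 29 in R-Scm 24 h against 12 h. The 5 and the 22 against Rcm came without R-Scm 24 h replicate 1, as did the 29, and the 22 against Scm without replicate 3. The number of all genes called moved too in these fits. In R-Scm 24 h it ran from 14 to 501 against Rcm, 57 to 309 against 12 h and 17 to 92 against Scm. The 501 and the 309 came without R-Scm 24 h replicate 1. It ran from 178 to 574 in Rcm against Scm and from 0 to 38 in S-Rcm 24 h against Rcm.
In fits without 1 library 13 log2 fold changes near 0, none of them called, changed sign. For Ifnar1 they ran from -0.13 to 0.18 in R-Scm 12 h against Rcm, from -0.022 to 0.21 in R-Scm 24 h against Scm, from -0.29 to 0.018 in Rcm against Scm and from -0.15 to 0.17 in S-Rcm 24 h against Rcm. For Irf1 they ran from -0.17 to 0.0026 in R-Scm 24 h against Rcm, from -0.16 to 0.054 in R-Scm 24 h against Scm, from -0.064 to 0.13 in Rcm against Scm, from -0.0087 to 0.27 in S-Rcm 24 h against Rcm and from -0.43 to 0.053 in S-Rcm 24 h against 12 h. The others were Ifnar2 in S-Rcm 24 h against Scm (-0.086 to 0.027), Ddx58 in S-Rcm 24 h against 12 h (-0.17 to 0.18), Dhx58 in R-Scm 12 h against Rcm (-0.099 to 0.040) and Ifih1 in R-Scm 24 h against Rcm (-0.59 to 0.22).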
